A study of Mus musculus with 8 samples.

Results

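The genes described here are 47 mouse genes that load amino acids onto transfer RNAs or make and interconvert amino acids. They were listed by name and pathway, not by a limit on their values, but with earlier results of these data known, and fall into 20 cytosolic aminoacyl-tRNA synthetase genes, 13 genes of serine, glycine and one-carbon metabolism and 14 genes of other amino acid enzymes. All 47 were listed once in each of the 2 tables of the series, which hold 13056 protein-coding genes for sorted cells and 14319 for overexpressing cells, and all 47 passed the minimum mean of 1 FPKM in both.

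The series measured mRNA by RNA-seq in 8 samples of mouse embryonic stem cells (mESCs), in 4 conditions of 2 samples each, from the strain cross labelled C57BL/6(F) x 129/sv(M). All were grown on gelatin in serum with leukaemia inhibitory factor, and the medium described in the study's methods also contained non-essential amino acids and L-glutamine. In the first experiment, KLF3-GFP negative and KLF3-GFP positive cells were separated by flow cytometry, 500 cells per sample, and sequenced after Smart-seq2, which amplifies full-length cDNA from few cells. Both groups came from a reporter line grown from picked DsRed colonies under hygromycin, in which the CAGGS promoter drives the N-terminal part of KLF3, without its DNA-binding domain, fused to GFP, so GFP reports the amount of that fusion and not the activity of the Klf3 promoter. In the second experiment (GFP-overexpression-72h and KLF3-overexpression-72h), R26 mESCs with the doxycycline-responsive M2rtTA activator and an FRT site at Col1a1 received GFP or codon-optimized Klf3. Per the study's methods, doxycycline induced either gene, and poly(A) RNA was sequenced at 72 h, taken here as the time of induction. These transfected cells were seeded on feeder cells during selection and clones were picked. The experiments share no samples and used different library protocols, so levels were compared only within an experiment.

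Aminoacyl-tRNA synthetases each attach 1 kind of amino acid to its transfer RNA, the step that supplies the ribosome. Serine is made from a glycolytic intermediate by Phgdh, Psat1 and Psph, and serine hydroxymethyltransferases then split it into glycine and a one-carbon unit carried by folate, which feeds nucleotide and methionine synthesis. In mESCs, threonine is a further source of glycine and one-carbon units through the dehydrogenase Tdh. Many of these genes, among them Asns, Psat1, Mthfd2 and several synthetases, are known targets of the transcription factor ATF4, which is made when amino acids run short or the endoplasmic reticulum is under stress.

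Each value is the authors' mean of the 2 samples of a condition in FPKM (fragments per kilobase of transcript, scaled to sequencing depth). No value for a single sample was available, so no SD, confidence interval or p-value stands beside any value, the spread between samples is unknown, and so is the number of reads. A difference below is log2(FPKM + 1) in the KLF3-GFP positive or KLF3-overexpressing cells minus that in their controls. A gene rose or fell where this difference was above 1 or below -1, a 2-fold limit on that scale, on which genes with low values appear to change less than in plain FPKM. The summed FPKM went from 904629 to 947917 with KLF3-GFP and from 612621 to 834882 on KLF3 overexpression, so the overexpression columns were not on an equal total. Among cell type markers, all 8 primitive endoderm markers rose in both experiments (summed level from 7.02 to 380.2 FPKM in sorted and from 15.9 to 84.5 FPKM in overexpressing cells). All 8 pluripotency markers passed the minimum mean in both, of which 5 fell in sorted and 3 in overexpressing cells. In sorted cells all 8 were below 0. On overexpression 6 were, and Pou5f1 (0.16) and Dppa5a (0.74) were above 0. Of all genes tested, 13.8% rose and 8.32% fell in sorted cells, and 6.60% rose and 10.1% fell on overexpression. Of 8 trophoblast markers, 4 passed the minimum mean in sorted and 5 in overexpressing cells, and of these 2 and 3 rose. These were Krt8 and Krt18 in both experiments and Hand1 on overexpression. Tfap2c (-0.94 and -0.95) and Eomes (0.44 and 0.13) stayed within the limit in both. Cdx2, under the minimum mean in both, was at 0.10 FPKM in both controls and at 0.57 and 0.60 FPKM in the KLF3 conditions. Of 9 fibroblast markers, which feeder cells would carry, 2 were listed in sorted cells, summing to 0.55 and 0.51 FPKM, and 4 in overexpressing cells, summing to 3.85 and 4.41 FPKM, of which Thy1 made up 2.72 and 3.14 FPKM. Col1a1 was not listed in the first and stood at 0.23 and 0.29 FPKM in the second. The part of these marker shifts in the differences below was not tested. In such pooled RNA, fewer cells expressing a gene and less RNA per cell cannot be told apart.

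**Figure D1:**
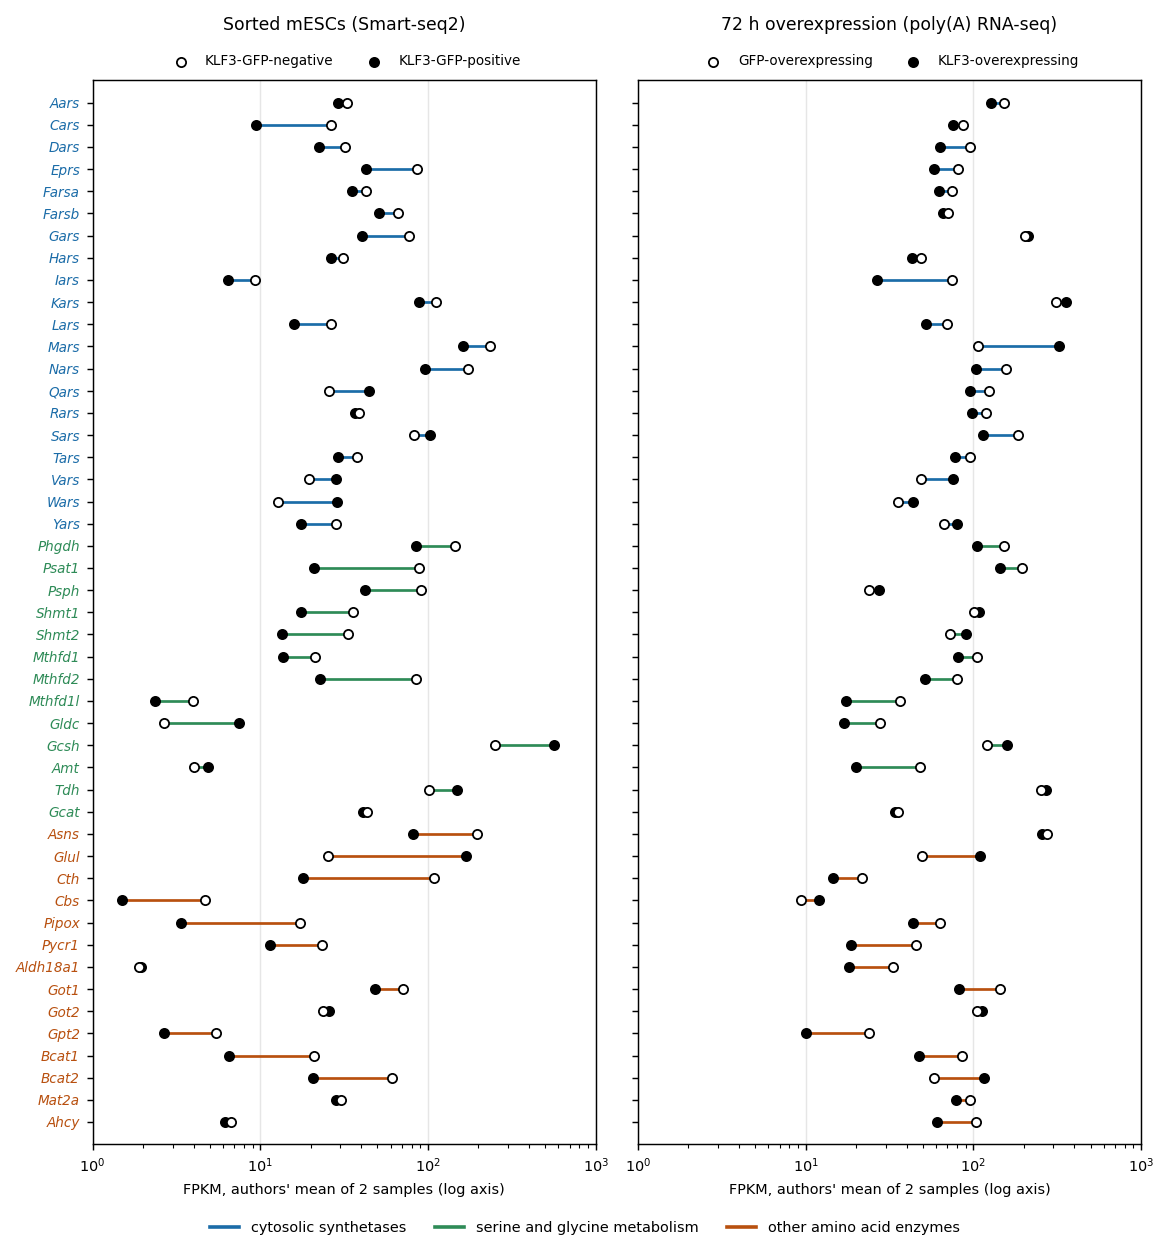
Level of each of the 47 genes in FPKM (the authors' mean of 2 samples, log axis) in the control (open circle) and the KLF3 condition (filled circle) of each experiment, with the line colour giving the gene class. In sorted cells the filled circle lies left of the open one for 36 of 47 genes, and the longest lines are those of Glul, Cth, Pipox and Psat1.

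In KLF3-GFP positive cells, most of these genes had lower levels than in KLF3-GFP negative cells. Of the 47, 11 fell and 4 rose, where 8.32% of all 9212 genes tested fell and 13.8% rose. The difference was below 0 for 36 of 47, with a median of -0.53, against 48.1% of all genes and a median of 0.03. The shift was smallest for the synthetases, with a median of -0.38, and larger for serine and glycine metabolism (-0.60) and the other amino acid enzymes (-0.89). Relative to the median of all genes, these medians lay between -0.46 and -0.32, between -0.97 and -0.42, and between -1.05 and -0.43 over all alternative settings. Summed levels went from 1194.9 to 911.1 FPKM for the synthetases and from 594.9 to 423.9 FPKM for the other enzymes, but from 907.2 to 981.9 FPKM for serine and glycine metabolism, of whose sum in KLF3-GFP positive cells Gcsh made up 562 FPKM.

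**Figure D2:**
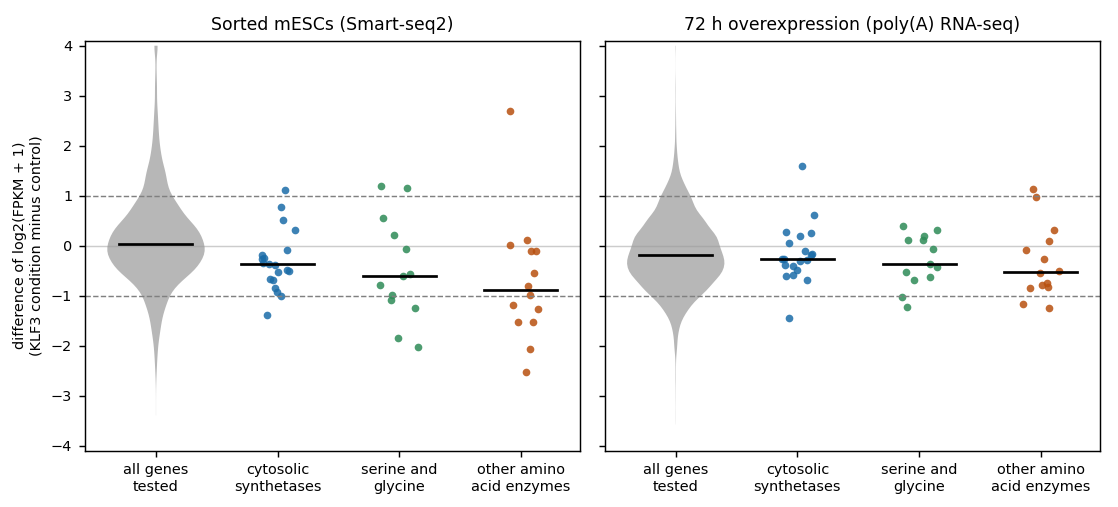
Difference of log2(FPKM + 1), KLF3 condition minus control, for all genes tested (grey density) and for each of the 47 genes (points) by class, with medians as black bars and the 2-fold limits as dashed lines. All 3 class medians lie below that of all genes in both experiments, more clearly in sorted cells, and genes beyond 4 in either direction (51 in sorted and 5 in overexpressing cells) are drawn at that value.

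The enzymes that make serine were lower in KLF3-GFP positive cells at every step. Phgdh, the first enzyme of the pathway, stood at 145 FPKM without and 84.3 FPKM with KLF3-GFP (difference -0.78), short of the limit. Psat1, the aminotransferase of the second step (chr19:15904678-15947337 in mm10), fell from 87.9 to 20.8 FPKM, a difference of -2.03 or 4.23-fold in plain FPKM. Psph, the phosphatase that releases serine (chr5:129765558-129787449), fell from 90.5 to 42.0 FPKM (-1.09) and was the fallen gene closest to the limit. The 3 genes together went from 323.6 to 147.1 FPKM. Phgdh had 1.65 times the level of Psat1 without KLF3-GFP and 4.05 times with it, so the pathway did not move in proportion.

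The folate enzymes that take over from serine were lower as well, and both that fell past the limit are mitochondrial. Mthfd2, the mitochondrial methylenetetrahydrofolate dehydrogenase (chr6:83305691-83317606), fell from 84.9 to 22.8 FPKM (-1.85), at percentile 1.37 of the differences of all genes. Shmt2, the mitochondrial serine hydroxymethyltransferase (chr10:127517123-127522444), fell from 33.4 to 13.5 FPKM (-1.25). Mthfd1l, which yields formate in mitochondria, was at 3.99 and 2.36 FPKM (-0.57). These 3 mitochondrial genes summed to 122.3 FPKM without KLF3-GFP and to 38.7 FPKM with it. The cytosolic counterparts stayed within the limit, Shmt1 at 35.7 and 17.4 FPKM (-0.99) just inside it and Mthfd1 at 21.3 and 13.7 FPKM (-0.60). The level of Mthfd2 was thus 3.98 times that of Mthfd1 without KLF3-GFP and 1.67 times with it, whereas Shmt2 and Shmt1 kept a ratio near equality (0.937 and 0.776).

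The glycine cleavage system is the mitochondrial complex that breaks glycine down and passes its carbon to folate. It held 2 genes that rose among its 3 listed here. Gldc, its decarboxylase (chr19:30098449-30175418), rose from 2.67 to 7.45 FPKM (1.20), and Gcsh, its lipoyl carrier protein (chr8:116981810-116993537), rose from 252.5 to 562 FPKM (1.15). Amt, the aminomethyltransferase, was at 4.05 and 4.86 FPKM (0.21). Gcsh had the highest level of all 47 genes in both groups, 94.6 times that of Gldc in KLF3-GFP negative cells, and its transcript resembles several processed pseudogenes. In threonine breakdown, Tdh was at 102 and 149 FPKM (0.55) and Gcat, the ligase that follows it, at 43.3 and 41.2 FPKM (-0.07), both within the limit.

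Asparagine and glutamine synthesis went in opposite directions. Asns, asparagine synthetase (chr6:7675169-7693254), fell from 195.6 to 81.3 FPKM (-1.26). Glul, glutamine synthetase (chr1:153899944-153909723), rose from 25.2 to 168 FPKM, a difference of 2.69 or 6.69-fold in plain FPKM and the largest rise among the 47, at percentile 98.2 of all genes. The level of Asns was 7.77 times that of Glul without KLF3-GFP and 0.483 times with it, so their order was turned.

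The transsulfuration pathway, which makes cysteine from homocysteine, held the gene that fell most. Cth, cystathionine gamma-lyase (chr3:157894248-157925077), fell from 108 to 18.04 FPKM (-2.52), 6.01-fold in plain FPKM and at percentile 0.163 of all genes. Cbs, cystathionine beta-synthase (chr17:31612623-31637199), fell from 4.67 to 1.49 FPKM (-1.19). The methionine cycle upstream of them was nearly level, with Mat2a, which makes S-adenosylmethionine, at 30.2 and 28.2 FPKM (-0.10) and Ahcy, which releases homocysteine, at 6.71 and 6.15 FPKM (-0.11). Pipox, a peroxisomal oxidase of sarcosine and pipecolic acid (chr11:77880615-77894096), fell from 17.2 to 3.37 FPKM (-2.06), at percentile 0.814.

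Among the aminotransferases, both that act on branched-chain amino acids fell. Bcat1, the cytosolic form (chr6:144993835-145076184), went from 20.8 to 6.53 FPKM (-1.53) and Bcat2, the mitochondrial form (chr7:45570153-45589710), from 60.6 to 20.5 FPKM (-1.52), and the ratio of Bcat2 to Bcat1 was 2.91 without KLF3-GFP and 3.14 with it. The aspartate aminotransferases stayed within the limit, cytosolic Got1 at 71.1 and 48.2 FPKM (-0.55) and mitochondrial Got2 at 23.6 and 25.8 FPKM (0.12), as did the alanine aminotransferase Gpt2 at 5.41 and 2.68 FPKM (-0.80). In proline synthesis, Pycr1, the last enzyme, was at 23.3 and 11.4 FPKM (-0.98), just inside the limit. Aldh18a1, the first enzyme, was nearly level at 1.9 and 1.94 FPKM (0.02), the lowest of its class in KLF3-GFP negative cells.

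The cytosolic synthetases moved less than the other classes. Of them, 18 of 20 stayed within the limit, beside 77.9% of all genes tested. A difference below 0 was seen for 16 of 20, beside 48.1% of all genes. Cars, the cysteinyl-tRNA synthetase (chr7:143557230-143600090), was the 1 that fell, from 26.4 to 9.41 FPKM (-1.39). Wars, the tryptophanyl-tRNA synthetase (chr12:108860030-108894174), was the 1 that rose, from 12.8 to 28.8 FPKM (1.12), the risen gene closest to the limit. Eprs, which charges glutamate and proline, was at 86.1 and 42.6 FPKM (-0.998), the member nearest the limit without passing it. The next differences below 0 were those of the glycyl synthetase Gars at 77.5 and 40.2 FPKM (-0.93), the asparaginyl synthetase Nars at 174 and 96.5 FPKM (-0.84), the leucyl synthetase Lars at 26.3 and 15.98 FPKM (-0.68) and the tyrosyl synthetase Yars at 28.4 and 17.6 FPKM (-0.66).

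The remaining synthetases all stayed within the limit. Mars, for methionine, had the highest level of the class in both groups, 233 and 161 FPKM (-0.53), and Iars, for isoleucine, the lowest, 9.31 and 6.39 FPKM (-0.48). Dars (-0.50), Farsb (-0.38), Tars (-0.37), Kars (-0.34), Farsa (-0.27), Hars (-0.24), Aars (-0.18) and Rars (-0.09) completed those below 0, for aspartate, phenylalanine (beta), threonine, lysine, phenylalanine (alpha), histidine, alanine and arginine. The subunits of the phenylalanyl synthetase kept a ratio of Farsb to Farsa of 1.55 and 1.44. Above 0 but within the limit were Qars for glutamine (25.6 and 44.3 FPKM, 0.77), Vars for valine (19.5 and 28.4 FPKM, 0.52) and Sars for serine (83.1 and 102.9 FPKM, 0.31).

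On KLF3 overexpression for 72 h, fewer of the 47 genes passed the limit. Of them, 5 fell and 2 rose, where 10.1% of all 11179 genes tested fell and 6.60% rose, so the counts lie near the background. The difference was below 0 for 32 of 47, with a median of -0.28, against 59.4% and a median of -0.18 over all genes. That median of all genes depended on the scaling, at -0.56 with columns set to the same sum, 0.00 with median-ratio scaling and -0.03 with quantile normalization, and the share of all calls that were rises went from 39.4% as deposited to 8.67%, 62.6% and 52.9%. Relative to it, the class medians were -0.09 for the synthetases, -0.19 for serine and glycine metabolism and -0.35 for the other enzymes, and over all alternatives they ranged from -0.46 to 0.01, from -0.55 to 0.01 and from -0.66 to -0.33. With a smooth trend of the difference with genomic span removed, the medians of the synthetases and of serine and glycine metabolism were at 0.00.

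The synthetases again held 1 gene in each direction, but other ones. Mars (chr10:127296221-127311786) rose from 106 to 323 FPKM, a difference of 1.60 at percentile 98.6 of all genes, and was the 1 gene of the 7 that passed the limit under every alternative, at 1.16 to 1.81. Its 3' end overlaps 68 bases of Ddit3 (1.99% of the exonic bases of Mars), which lies on the opposite strand and was at 23.3 and 30.7 FPKM. The study's methods name a directional library kit and default program settings but no strand option. Reads from the shared bases may thus not have been told apart. Iars (chr13:49682100-49734267) fell from 74.6 to 26.6 FPKM (-1.45), and with the trend with genomic span removed its difference was -0.99. Kars had the highest level of the class in both groups, 313 and 359 FPKM (0.20), and the levels of the other synthetases in GFP-overexpressing cells lay between those of Wars (35.7 FPKM, lowest) and Gars (202 FPKM).

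The other synthetases stayed within the limit. Sars was at 184 and 114 FPKM (-0.69) and Vars at 48.6 and 75.3 FPKM (0.62), the largest differences among them in each direction. Below 0 were also Nars (-0.60), Dars (-0.58), Eprs (-0.48), Lars (-0.41), Qars (-0.38), Tars (-0.30), Rars (-0.28), Aars (-0.27), Farsa (-0.26), Cars (-0.19), Hars (-0.17) and Farsb (-0.11). Above 0 were Wars (0.28), Yars (0.25), Kars and Gars (0.06). The 2 genes past the limit in sorted cells were thus at 86.8 and 76.1 FPKM (Cars) and at 35.7 and 43.7 FPKM (Wars) here.

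Serine synthesis stayed within the limit on overexpression. Psat1 was at 194 and 143 FPKM (-0.43), Phgdh at 152 and 105 FPKM (-0.53) and Psph at 23.7 and 27.2 FPKM (0.19), the lowest level of its class in GFP-overexpressing cells. The 3 genes summed to 370.0 FPKM with GFP and 275.8 FPKM with KLF3. Of the folate genes, Mthfd1l (chr10:3973118-4167081) fell from 36.5 to 17.4 FPKM (-1.03), the fallen gene closest to the limit. Mthfd2 was at 79.5 and 51.3 FPKM (-0.62), Mthfd1 at 105 and 80.9 FPKM (-0.37), Shmt2 at 72.4 and 89.8 FPKM (0.31) and Shmt1 at 100.4 and 108 FPKM (0.11).

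The glycine cleavage genes did not share a direction. Amt (chr9:108296853-108302302) fell from 47.9 to 20.01 FPKM (-1.22), Gldc was at 27.8 and 16.9 FPKM (-0.68), and Gcsh was at 120.0 and 159 FPKM (0.40). Their sums were nearly equal, 195.6 FPKM with GFP and 195.8 FPKM with KLF3, and Gcsh made up most of each. Tdh, with the highest level of this class in both groups, was at 253 and 273 FPKM (0.11), and Gcat was at 35.5 and 34.0 FPKM (-0.06).

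Of the other enzymes, Glul rose on overexpression too. It went from 49.4 to 109.6 FPKM (1.13) and was the risen gene closest to the limit, which it missed at 0.69 with columns set to the same sum and at 0.93 with quantile normalization. Asns, the highest of this class, was at 274 and 257 FPKM (-0.09), so the ratio of Asns to Glul was 5.55 with GFP and 2.35 with KLF3. Pycr1 (chr11:120635712-120643769) fell from 45.7 to 18.6 FPKM (-1.25), and Aldh18a1, at 33.2 and 18.1 FPKM (-0.84), was the other proline synthesis gene and stayed within the limit. Gpt2 (chr8:85492576-85527560) fell from 23.9 to 10.02 FPKM (-1.17).

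The branched-chain aminotransferases parted on overexpression. Bcat2 was at 58.6 and 116 FPKM (0.98), just short of the limit, and Bcat1 at 85.7 and 47.6 FPKM (-0.83), so that their ratio went from 0.684 with GFP to 2.44 with KLF3. An antisense transcript overlaps 15.9% of the exonic bases of Bcat2, which applies to its values in sorted cells as well. The aspartate aminotransferases differed in sign, with Got1 at 144 and 82.5 FPKM (-0.79) and Got2 at 105 and 112 FPKM (0.09). The sulfur amino acid genes and Pipox all stayed within the limit, with Ahcy at 103 and 60.8 FPKM (-0.75), Mat2a at 94.9 and 78.3 FPKM (-0.27), Cth at 21.7 and 14.5 FPKM (-0.55), Cbs at 9.38 and 12.0 FPKM (0.32) and Pipox at 62.9 and 43.9 FPKM (-0.51).

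Set side by side, 27 of the 47 genes had a difference below 0 in both experiments and 6 above 0 in both, while 9 were below 0 in sorted cells and above 0 on overexpression and 5 the other way round. Over the 8887 genes tested in both experiments, 26.8% were below 0 in both, 23.8% above 0 in both, 21.3% below and then above 0 and 27.9% above and then below 0. Past the limit, 1 of the 47 (Glul) rose in both and none fell in both, where 2.55% of all genes rose and 0.686% fell in both. Of the 11 genes that fell in sorted cells, the differences on overexpression lay between -0.83 (Bcat1) and 0.98 (Bcat2). Of the 5 that fell on overexpression, those in sorted cells lay between -0.98 (Pycr1) and 0.21 (Amt). Of the 4 that rose in sorted cells, Wars, Gcsh and Glul were above 0 on overexpression too and Gldc was at -0.68. Across the 47 genes, Pearson's r between the experiments was 0.229 and Spearman's rho 0.122, a description across genes that are not independent replicates.

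**Figure D3:**
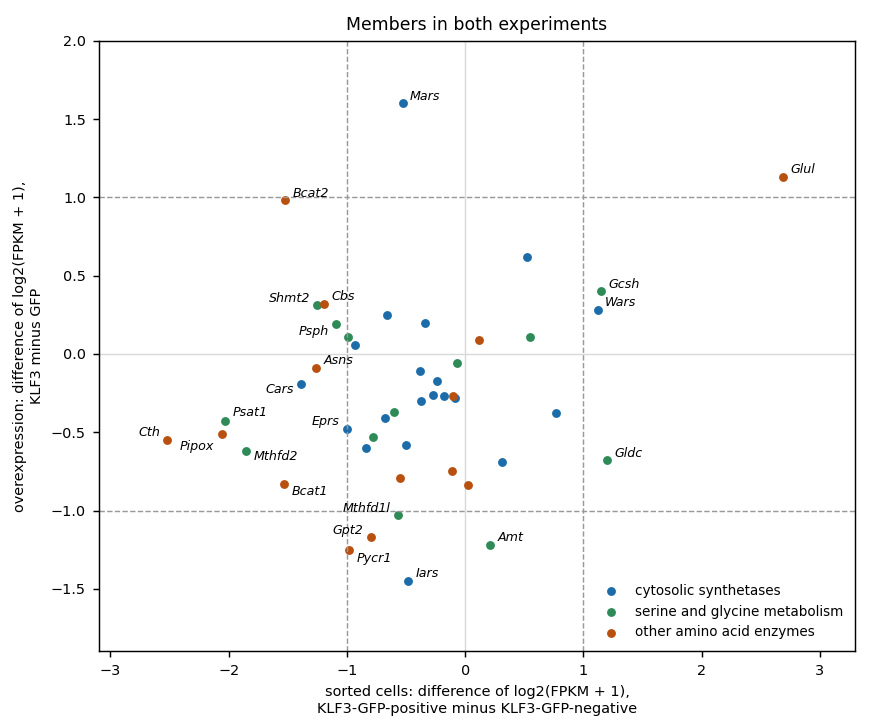
Difference of log2(FPKM + 1) in sorted cells (x axis, KLF3-GFP positive minus negative) against that on overexpression (y axis, KLF3 minus GFP) for the 47 genes, coloured by class, with the 2-fold limits as dashed lines and names on genes past a limit in either experiment and on Eprs. Glul alone lies beyond the upper limit on both axes, no gene lies beyond the lower limit on both, and Mars and Iars stand apart on the y axis only.

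The promoters of these genes were searched for the letters TGATGNAA on either strand, the core of the site that ATF4 binds together with C/EBP proteins, since that site is known from Asns and several synthetase genes, so the choice of motif was not independent of these genes. The RefSeq promoter table (GRCm38.p6, the build of mm10) gives 250 bases before and 50 bases after each start, and 38 of the 47 genes were matched to it. Cars, Hars, Lars, Nars, Rars, Vars, Wars, Tdh and Cth were not. The letters were found for 8 of 38 genes (21.1%) against 4.51% of all 27025 genes in the table, and per window in 8 of 41 (19.5%) against 3.97%. That background was not restricted to genes tested in the series, so the sets compared are unlike. Of the 8, 5 are synthetases among 13 matched, 3 are other enzymes among 13 matched, and none of the 12 matched serine and glycine genes held them. A match in each of the 8 genes is given with 10 bases on either side on the strand of the gene and the motif in capitals, to show how the letters vary and where they lie.
Asns, chr6:7693215-7693242, minus strand: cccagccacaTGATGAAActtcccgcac
Gars, chr6:55037961-55037988, plus strand: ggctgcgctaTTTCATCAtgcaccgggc
Tars, chr15:11399656-11399683, minus strand: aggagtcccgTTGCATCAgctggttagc
Yars, chr4:129189896-129189923, plus strand: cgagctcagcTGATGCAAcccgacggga
Iars, chr13:49682127-49682154, plus strand: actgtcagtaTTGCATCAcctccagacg
Aars, chr8:111033841-111033868, plus strand: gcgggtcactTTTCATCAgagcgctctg
Pycr1, chr11:120643834-120643861, minus strand: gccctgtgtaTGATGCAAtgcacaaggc
Got1, chr19:43524690-43524717, minus strand: attgcattggTTGCATCAtacaagcctc

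Counted from the start site on the gene's strand, with the base before it as -1, the match given began at +10 in Aars, -103 in Pycr1, -102 in Got1, -30 in Gars, -23 in Asns, -15 in Tars, +4 in Yars and +8 in Iars. Aars held a further match in its window that is not printed. All 8 genes had a difference below 0 in sorted cells, with a median of -0.61 and a range from -1.26 (Asns) to -0.18 (Aars). Of the 30 matched genes without the letters, 22 were below 0, with a median of -0.52. The groups differ in class, since 5 of the 8 are synthetases and the 12 matched serine and glycine genes are all among the 30. Whether the motif bears on the differences was not tested. On overexpression 6 of the 8 were below 0 with a median of -0.29, against 20 of 30 with a median of -0.38. Psat1 and Mthfd2, which fell in sorted cells, held no match in this window. The letters CCACACCC, a CACCC box of the kind bound by KLF proteins, were found for 3 of 38 genes (7.89%) against 4.09% of all genes in the promoter table. These were Dars, Cbs and Bcat1, with differences of -0.50, -1.19 and -1.53 in sorted cells and -0.58, 0.32 and -0.83 on overexpression. A match describes letters and is not evidence of binding.

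Genes of the same pathways outside the 47 are given beside all genes tested. Of those, 13.8% rose and 8.32% fell in sorted cells, and 6.60% rose and 10.1% fell on overexpression. In lists this short, few or no genes past the limit do not set a list apart from all genes. Of 17 mitochondrial synthetases, 15 were tested in sorted cells and 16 on overexpression, and none passed the limit in either, with medians of -0.12 and -0.13. The scaffold proteins of the multi-synthetase complex (Aimp1, Aimp2 and Eef1e1) stayed within the limit too, with medians of -0.17 and 0.50. The further serine, glycine and folate genes had medians of -0.01 (9 tested) and -0.03 (10 tested), with a fall of Mthfs in sorted cells (66.0 to 32.0 FPKM, -1.02) and of Aldh1l1 on overexpression (4.37 to 1.58 FPKM, -1.06). Of the further methionine and polyamine genes, none of 10 passed the limit in sorted cells (median 0.18) and Mat2b fell among 11 on overexpression (36.7 to 15.98 FPKM, -1.15; median -0.21).

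The mRNA of ATF4 itself (Atf4) was nearly level, at 24.4 and 23.0 FPKM in sorted cells (-0.08) and at 245 and 201 FPKM on overexpression (-0.29), although ATF4 is controlled mainly through its translation, which these data do not measure. Its list of response genes held both directions in sorted cells. Of 15 tested, 2 rose and 3 fell, beside 13.8% and 8.32% of all genes. Nupr1, a stress-induced chromatin protein, fell from 140.4 to 25.4 FPKM (-2.42), Trib3, a pseudokinase that restrains ATF4, from 5.70 to 1.06 FPKM (-1.70) and Eif4ebp1, which holds back cap-dependent translation, from 1507 to 607 FPKM (-1.31). Atf3 rose from 0.43 to 3.02 FPKM (1.49) and Ddit3, which encodes CHOP, from 9.48 to 21.0 FPKM (1.07), and the median over the 15 genes tested was -0.05. On overexpression, Ppp1r15a rose (29.9 to 74.3 FPKM, 1.28) and Chac1 fell (10.95 to 3.85 FPKM, -1.30) among 16 tested, with a median of -0.09. Over all genes, 6.60% rose and 10.1% fell there.

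Amino acid transporters of the same response were split as well. Of 5 tested in sorted cells, 2 rose and 1 fell, beside 13.8% and 8.32% of all genes. In sorted cells, Slc7a3, a carrier of cationic amino acids, fell from 40.1 to 6.81 FPKM (-2.40), while its relative Slc7a1 rose from 1.6 to 6.21 FPKM (1.47) and the neutral amino acid carrier Slc38a2 from 5.74 to 13.2 FPKM (1.08), among 5 tested with a median of 0.20. On overexpression, Slc1a5, a glutamine carrier, fell from 80.3 to 30.2 FPKM (-1.38) and the other 7 tested stayed within the limit (median of the 8, -0.32). Of all genes, 10.1% fell there. Of the further glutamate, proline and arginine genes, 2 of 11 tested rose in sorted cells and none fell, beside the 13.8% and 8.32% of all genes. These were Glud1, glutamate dehydrogenase (20.3 to 55.4 FPKM, 1.40), and Oat, ornithine aminotransferase (14.1 to 33.2 FPKM, 1.19). The median of this list was -0.03 in sorted cells and 0.07 over 12 tested on overexpression.

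**Figure D4:**
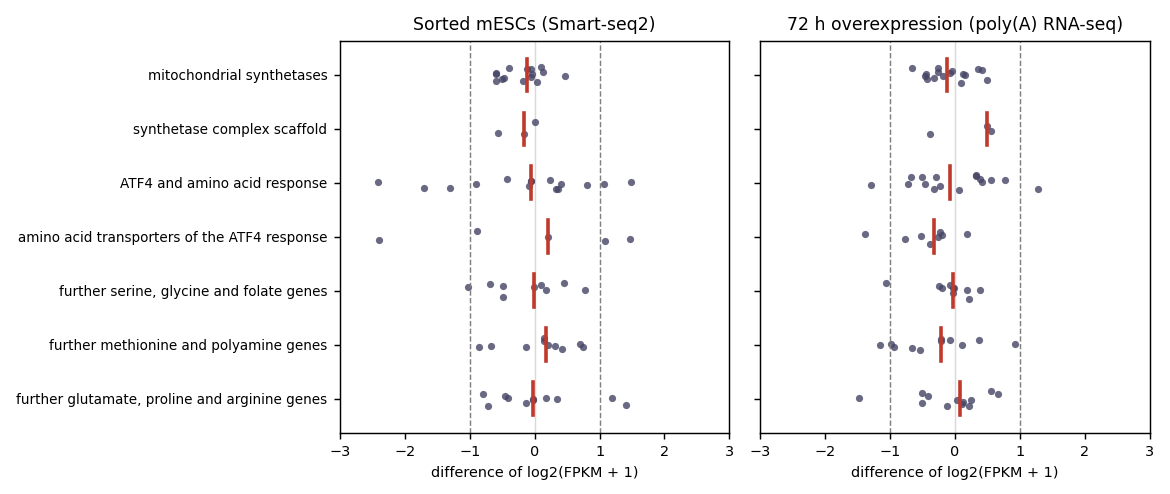
Difference of log2(FPKM + 1), KLF3 condition minus control, for each tested gene of 7 lists of related genes outside the 47 (points), with the median of each list as a red bar and the 2-fold limits as dashed lines. The mitochondrial synthetases and scaffold genes stay inside the limits in both experiments, whereas the ATF4 response genes spread from -2.42 to 1.49 in sorted cells around a median of -0.05.

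Some of these values rest on reads that other genes can share. In the GENCODE annotation of the same build, the transcript of Phgdh resembles many processed pseudogenes at up to 98.7% identity, and those of Ahcy (Gm4737, 99.7%), Got2 (Got2-ps1, 99.1%), Tdh (Gm13929, 97.1%), Glul (Glns-ps1, 96.8%) and Iars (Gm4849, 96.2%) each have a near-identical copy over 40.2% to 81.9% of their length. Psph shares 10.4% of its exonic bases with a transcript of Cct6a on the opposite strand, and Aars 14.3% with Exosc6 on the same strand. The study's methods give default program settings and no option for reads that match several places, so the levels of these genes are uncertain.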

How the data were processed

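The 47 genes and the further gene lists were chosen with earlier results of these data known. Per the study's methods, the authors mapped reads to mm10 by STAR, guided by GENCODE gene models, and Cufflinks gave the FPKM. The submitters' processing notes name Cufflinks 2.2.1 and STAR 2.6.0. They deposited 1 table per experiment with 2 FPKM columns, each the authors' mean of 2 samples. The values carry 2 decimals, cover protein-coding genes and go no lower than 0.1. Counts and single samples were not analysed here, so no replicate test, leave-one-out or depth interval could be computed, and p-values are absent throughout.

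Samples were grouped by their genotype labels. Differences of log2(FPKM + 1) were computed where a gene averaged 1 FPKM or more over both columns, and past 2-fold a gene was called. Every one of the 47 is reported, and for each further list the genes past 2-fold, at most 3 by size. Where a symbol had several loci, that of the highest mean stood for it. Start coordinates are given 1-based. Alternatives were pseudocounts of 0.1 and 10, no minimum or a mean of 5 FPKM, columns set to the same sum, median-ratio scaling, quantile normalization, a lowess trend with genomic span removed (fraction 0.3, statsmodels 0.14.6) and, chosen after seeing the data, a minimum mean of 20 FPKM. Near-identical copies were sought with blastn 2.17.0 in GENCODE M21 transcripts. The calling step was tested on simulated data. One further gene and one sequence are not reported here.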

Additional observations from a re-analysis of the deposited data

How the results depend on the processing

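In sorted cells, all 3 class medians stayed below 0 under every alternative. With a pseudocount of 10, 2 of the 47 genes rose and 6 fell (4 and 11 as reported). A minimum mean of 20 FPKM, an alternative chosen after seeing the data, left 7 that fell. It put the ATF4 response list at a median of -0.70, with only Atf4, Eif4ebp1, Nupr1 and Ppp1r15a left. Its transporters were at -1.10, with only Slc3a2 (0.20) and Slc7a3 (-2.40) left. The ATF4 response list was at 0.24 with no minimum mean, and its transporters at -0.35 with a minimum mean of 5 FPKM. With a pseudocount of 0.1, columns set to the same sum, median-ratio scaling or the trend with genomic span removed, 14 fell. Under quantile normalization, 15 fell. Of the 15 genes past the limit, 8 (Psat1, Mthfd2, Gcsh, Asns, Glul, Cth, Pipox and Bcat2) passed it under every alternative that tested them. Cars, Psph, Shmt2, Gldc, Cbs and Bcat1 missed it with a pseudocount of 10, and Wars with that (0.77) and with quantile normalization (0.98). Eprs, Shmt1 and Pycr1 passed it with a pseudocount of 0.1, with columns set to the same sum and with median-ratio scaling. They and Gars passed it with quantile normalization, and Eprs, Shmt1 and Gars with the trend with genomic span removed.

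On overexpression, where 2 rose and 5 fell as reported, 1 fell with a pseudocount of 10, 1 rose and 14 fell with columns set to the same sum, 3 fell with median-ratio scaling, 1 rose with quantile normalization and 2 fell with the trend with genomic span removed. Of the 7 genes past the limit, Mars alone passed it under every alternative. Iars missed it with the trend removed, Amt and Pycr1 with a pseudocount of 10, Glul with columns set to the same sum and quantile normalization, and Mthfd1l and Gpt2 under 4 alternatives each. Bcat2 passed it at 1.18 with median-ratio scaling and at 1.16 with the trend removed. A higher minimum mean leaves fewer genes to test, and the cause of the other changes was not tested.

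No paired analysis was possible because each deposited column is the mean of both samples of a condition, and leaving out a sample was not run for the same reason. Without sample values, no difference here can be set against the spread between the 2 samples, and depth is unknown. Small differences and the low levels of Aldh18a1, Gldc, Amt, Mthfd1l and Cbs in sorted cells are thus least certain. The study called differentially expressed genes with DESeq2, and its calls were not used here.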
